A study of Mus musculus with 2 samples.

Results

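The 10 genes described here mark the lineages and effector functions of lymphocytes. They are *Cd3d*, *Cd3e*, *Trdc*, *Il17a*, *Cd8a*, *Gzma*, *Nkg7*, *Foxp3*, *Ctla4* and *Icos*, chosen by name from the 20198 genes of the count table. They were followed in the 215 cells of deposited cluster 16 of the wounded library, which holds 12417 cells in all, and deposited clusters 13, 14 and 15 of that library (710, 354 and 251 cells) served as the background. Corneas of male mice aged 6 to 8 weeks were dissociated with dispase II, trypsin and collagenase, and their cells were sequenced by droplet 3′ single-cell RNA-seq. The unwounded library (UW) pooled the corneas of 4 untreated mice, and the wounded library (W) those of 4 mice taken 24 h after the central epithelium had been scraped off. Each condition is 1 library of pooled animals, so no value below has a biological replicate, and no test between conditions was made.

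T cells recognise antigen through a receptor of variable chains that signals through the CD3 subunits. Most T cells carry alpha and beta chains and divide into CD4+ helper or regulatory cells and CD8+ killer cells, while gamma delta T cells carry a different pair of chains and are residents of barrier tissues, where they can release interleukin 17 rapidly. Interleukin 17 acts on epithelial and stromal cells and is known for drawing in neutrophils. Regulatory T cells depend on the transcription factor FOXP3 and restrain other lymphocytes, in part through CTLA4.

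The cells of W cluster 16 held a median of 4411 unique molecular identifiers (UMIs, counted RNA molecules), from 1201 to 27089 per cell and 1039178 in sum. All 6 fixed T cell markers were found, at a summed level of 3411 CPM (UMIs of a gene scaled to the same total in every group), against 6.54, 11.1 and 3.32 CPM in W clusters 13, 14 and 15. UMIs of other cell types' markers were also found, and their source was not tested. *Retnlg* (neutrophil), *Csf1r* (monocyte and macrophage) and *Cd207* and *Flt3* (Langerhans and dendritic cells) were at 0, with 4 of 5 neutrophil markers (213 CPM), 5 of 6 monocyte and macrophage markers (56.8 CPM) and 3 of 5 dendritic markers (112 CPM) found. Epithelial markers were at 6572 CPM with all 5 found, against 34962 CPM in W epithelial cells, and all 4 stromal markers were found at 992 CPM. The epithelial keratin *Krt12* was present in all 215 cells. The mast cell markers (996 CPM) came from 1 cell with 11946 UMIs and no UMI of the 10 genes. The 2 B cell markers in the table had 6 UMIs together. No cell of W cluster 16 was a doublet in the deposited calls. The 2 libraries shared 52 barcode sequences, 1 of them in W cluster 16.

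At least 1 of the 10 genes was detected (1 UMI or more) in 208 of the 215 cells, 96.7% (95% Clopper-Pearson interval 93.4 to 98.7%), and a median of 4 genes was detected per cell. 7 cells held none, 12 held 1, 33 held 2 and 2 held 7, the highest number. Over W clusters 13 to 15, 19 of 1315 cells held any of them (1.44%, 0.872 to 2.25%) and 2 cells held 2 or more. All intervals here and below cover counting error only, and shares depend on depth as well as on expression. Median depth was 2510, 8724 and 10144 UMIs in W clusters 13, 14 and 15 and 25553 UMIs in W epithelial cells, so that the last 3 groups had more UMIs per cell in which to find a gene than cluster 16.

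**Figure D1:**
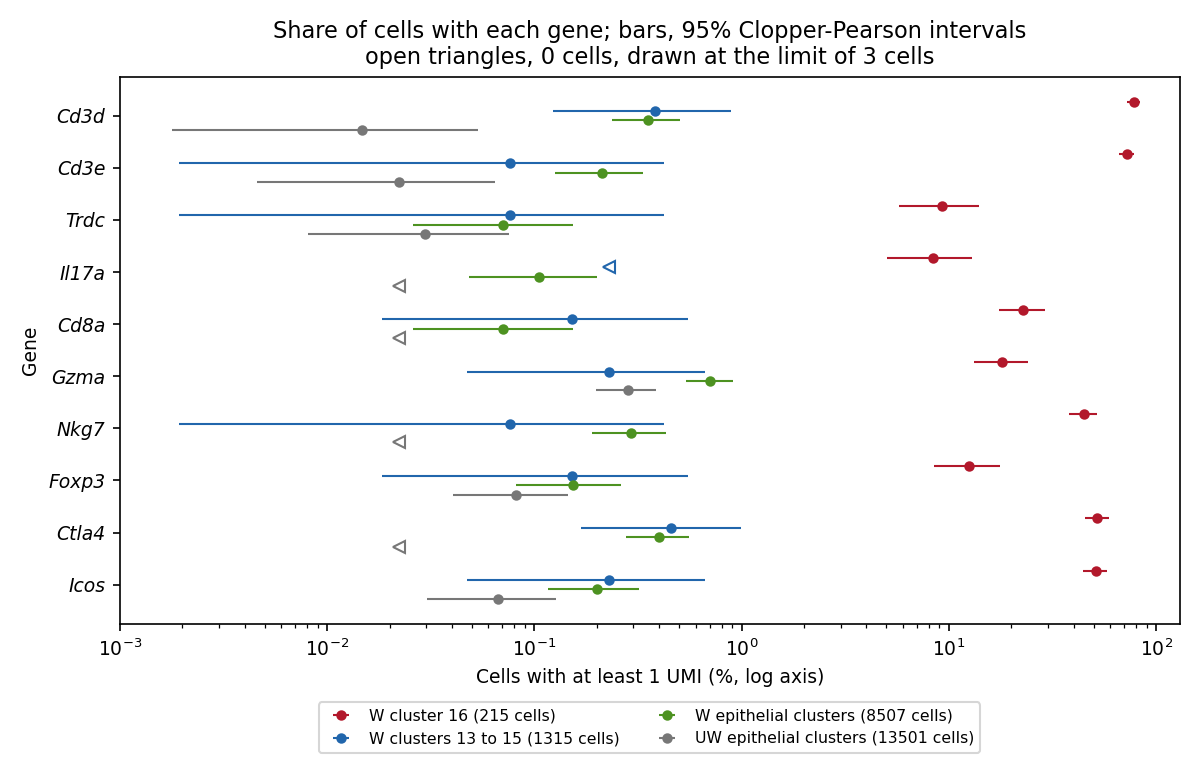
The horizontal log axis gives the percent of cells with at least 1 UMI of each gene, for W cluster 16, W clusters 13 to 15, and the epithelial clusters of W and UW. In W cluster 16 the shares lie between 8.37% (*Il17a*) and 78.1% (*Cd3d*), and in the other groups all are below 1%.

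The CD3 subunits were the most widely detected. *Cd3d*, on chromosome 9 at 44981786 to 44987339 (GRCm38), encodes the delta subunit of the complex that carries the receptor's signal into the cell, and was present in 168 of 215 cells (78.1%, 72.0 to 83.5%). Those cells held from 1 to 16 UMIs with a median of 3. *Cd3e*, its epsilon partner on the opposite strand 11400 bases away, was present in 156 cells (72.6%, 66.1 to 78.4%) with a median of 2 UMIs and at most 7. The 2 intervals overlap. Both were present in 135 cells and at least 1 in 189. The 26 cells with neither had a median of 3040 UMIs, below the 4468 of the others. The beta chain gene *Trbc2* was in 9 of them, *Cd3g* in 9, the alpha chain gene *Trac* in 7, *Nkg7* in 11 and *Gzma* in 6. *Klrd1*, which encodes CD94, was in 9, and *Tyrobp* and *Fcer1g*, adaptors of innate receptors, in 7 each.

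The gamma delta receptor and interleukin 17 were found in few cells, and there at many UMIs. *Trdc*, the constant segment of the delta chain on chromosome 14 (54142851 to 54148868), was present in 20 cells (9.30%, 5.78 to 14%) with a median of 9 UMIs and up to 40, and 5 cells held 57.2% of its 222 UMIs. *Il17a*, on chromosome 1 (20730905 to 20734496), encodes interleukin 17A. It was present in 18 cells (8.37%, 5.04 to 12.9%) with a median of 5.5 UMIs and up to 34, and 5 cells held 65.9% of its 135 UMIs.

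Cytotoxic genes covered a larger share. *Cd8a*, the alpha chain of the CD8 coreceptor on chromosome 6 (71373427 to 71379173), was present in 49 cells (22.8%, 17.4 to 29.0%) at a median of 2 UMIs and at most 8. *Gzma*, on chromosome 13 (113093825 to 113100981), encodes the granule protease granzyme A, and was present in 39 cells (18.1%, 13.2 to 24.0%). Its UMIs were spread most widely, from 1 to 116 per cell with a median of 17, and 21 cells held over 10. *Nkg7*, on chromosome 7 (43437073 to 43438249), encodes a granule membrane protein of killer cells and was present in 96 cells (44.7%, 37.9 to 51.6%) at a median of 5 UMIs and at most 21.

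*Foxp3*, on chromosome X (7573644 to 7595245), was present in 27 cells (12.6%, 8.44 to 17.7%), 18 of which held a single UMI and none more than 3. Its gene body is overlapped by *Ccdc22* and *Ppp1r3f* on the other strand and by *Flicr* on its own, and whether counting used strand is not given in the sources used here. *Ctla4*, which encodes an inhibitory receptor that competes for the CD28 ligands, was present in 112 cells (52.1%, 45.2 to 58.9%), with a median of 2 UMIs and up to 27. *Icos*, which encodes a costimulatory receptor of the same family and lies next to *Ctla4* on chromosome 1, was present in 110 (51.2%, 44.3 to 58.0%), with a median of 2 UMIs and up to 15. The intervals of *Ctla4*, *Icos* and *Nkg7* overlap, as do those of *Foxp3*, *Trdc* and *Il17a*.

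**Figure D2:**
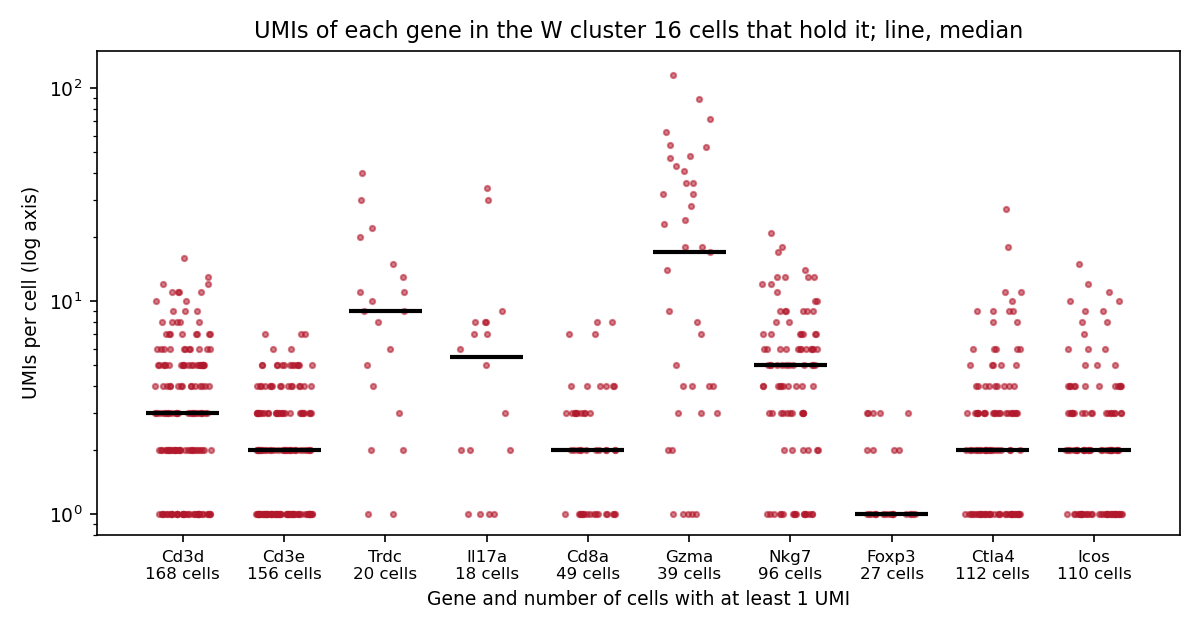
Each point is a W cluster 16 cell with at least 1 UMI of the gene named below it, with its UMIs on a log axis and the median as a line. *Gzma* reaches 116 UMIs and *Trdc* 40, while no cell holds more than 3 UMIs of *Foxp3*.

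Against W clusters 13 to 15, all 10 genes had a higher level by a log2 ratio of 2 or more, the size used for a call among genes with at least 20 UMIs in both sums together. Among all genes with that many UMIs, 4.5% (510 of 11340) were as much higher, and their median log2 ratio was 0.15 against 9.03 for the 10 genes. The clusters were made from these same counts, so this is a description of what sets the cluster apart and carries no test. The level of *Cd3d* was 627 CPM (exact Poisson interval 580 to 677) against 0.850 CPM, a log2 ratio of 9.53 (8.48 to 10.85), and that of *Cd3e* 358 CPM against 0.121 CPM. *Gzma* was at 930 CPM (872 to 990) against 0.364 CPM, and *Nkg7* at 510 CPM (468 to 555) against 0.121 CPM. *Il17a* had no UMI in the 1315 cells, which allows a share of up to 0.228% when 3 cells are taken as the limit for a count of 0, as below. Its 130 CPM (109 to 154) in cluster 16 was at least 356-fold higher when that group is given 3 UMIs. *Foxp3* had the smallest ratio at 6.34 (4.88 to 8.29), from 39.5 CPM against 0.486 CPM. Of the UMIs in these 3 clusters, cluster 14 held 8 of the 9 for *Ctla4* (in 5 cells) and 6 of the 7 for *Icos* (in 2 cells). It also held 5 of the 7 for *Cd3d* (in 3 cells). The source of these UMIs was not tested.

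The genes were not spread evenly over the cells. For each of the 45 pairs, the number of cells holding both was compared with the number expected if the 2 genes were detected independently, the product of their shares times 215 cells. At least 3 cells were expected for 42 pairs. Of these, 4 (9.52%) were found together at 1.5 times the expected number or more, a share near the 8.63% of the 20400654 pairs with 3 or more cells expected among all genes detected in 10 or more cells. By contrast, 10 (23.8%) were found together at 0.5 times or less, where those pairs gave 2.36%. Pairs share genes and cells and all come from 1 library, so the 2 shares are set side by side without a test.

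**Figure D3:**
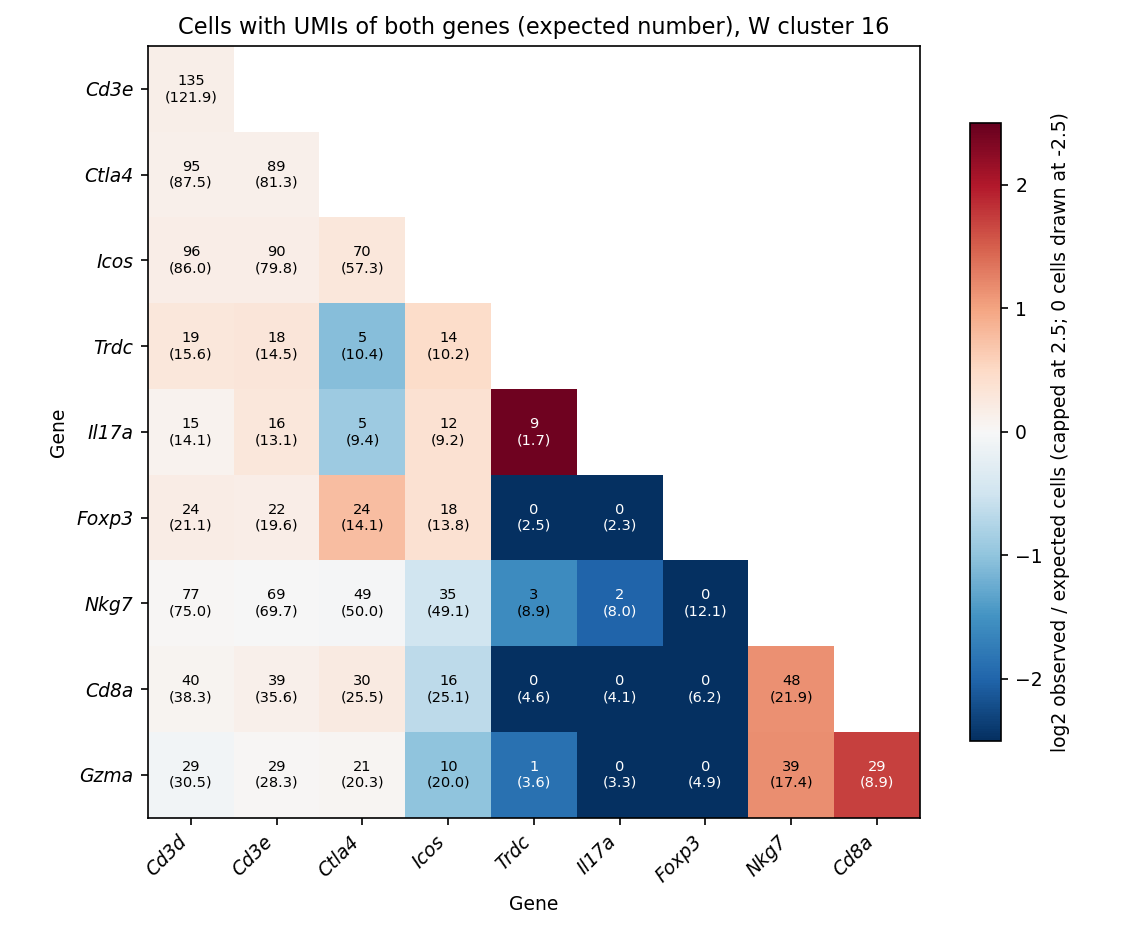
Each square gives the number of W cluster 16 cells with UMIs of both genes and, in parentheses, the number expected. Colour shows the log2 ratio, with red for more and blue for fewer cells than expected. *Cd8a*, *Gzma* and *Nkg7* form a red corner, *Trdc* and *Il17a* a red square, and *Foxp3* meets *Trdc*, *Il17a*, *Nkg7*, *Cd8a* and *Gzma* in no cell.

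*Nkg7*, *Cd8a* and *Gzma* came together. All 39 cells with *Gzma* held *Nkg7*, against 17.4 expected, and so did 48 of 49 cells with *Cd8a*, against 21.9. *Cd8a* and *Gzma* shared 29 cells, against 8.89, 3.26 times the expected number. The fourth pair in excess was *Foxp3* with *Ctla4*, in 24 cells against 14.1, and its call was lost at equal depth, where 6 cells held both against 5.2 expected. *Trdc* and *Il17a* shared 9 cells, 45% of the *Trdc* cells and 9 of 18 *Il17a* cells, with 1.67 expected, too few for a call.

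*Foxp3* was found with none of *Nkg7* (12.1 cells expected), *Cd8a* (6.15) and *Gzma* (4.90), nor with *Trdc* (2.51) and *Il17a* (2.26). Of the 27 *Foxp3* cells, 0 with a given gene allows a share of up to 11.1% (3 cells), or 12.8% by the exact interval, of cells with a UMI. Neither limits the share of cells that express the gene. *Cd8a* was found in no cell with *Trdc* (4.56 expected) or *Il17a* (4.10). *Gzma* was found in 1 cell with *Trdc* (3.63) and in none with *Il17a* (3.27). *Nkg7* was found in 3 cells with *Trdc* (8.93) and in 2 with *Il17a* (8.04). The tenth pair was *Trdc* with *Ctla4*, in 5 cells against 10.4, a call that was lost when 2 UMIs were asked for detection. *Icos* went the other way, present in 14 of 20 *Trdc* cells (10.2 expected) and in 10 of 39 *Gzma* cells (19.95 expected). Neither pair passed the size for a call here. When 2 UMIs were asked for detection, *Trdc* with *Icos* was called in excess and *Gzma* with *Icos* in shortfall.

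After all cells were thinned to 2000 UMIs, which left out 10 cells with fewer, the shares fell to 59.0% for *Cd3d*, 48.3% for *Cd3e* and 6.34% for *Foxp3*, while those of *Trdc* (8.78%) and *Gzma* (17.1%) moved little. Of 37 pairs with 3 or more cells expected, 4 (10.8%) were then in excess and 7 (18.9%) in shortfall, where all pairs gave 6.19% and 5.06%. The 3 pairs of *Cd8a*, *Gzma* and *Nkg7* were still in excess, and the other pair was now *Foxp3* with *Icos* (7 cells against 4.63) in place of *Foxp3* with *Ctla4*. In shortfall, 5 of the 10 pairs were called again. The other 5, those of *Cd8a* with *Trdc*, *Il17a* and *Foxp3* and of *Gzma* with *Il17a* and *Foxp3*, had under 3 cells expected. *Icos* with *Cd8a* (6 cells against 12.1) and with *Gzma* (6 against 12.5) were new.

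Grouped by *Trdc* or *Il17a*, by *Cd8a* or *Gzma*, and by *Foxp3*, a grouping chosen after the values were seen, the cells fell into sets of 29 (13.5%), 59 (27.4%) and 27 (12.6%). Only 1 cell was in more than 1 set, with *Trdc*, *Gzma* and *Nkg7* and neither CD3 gene. The other 101 cells (47.0%, 40.2 to 53.9%) were in no set. Among those, 76 held *Cd3d*, 75 the alpha chain gene *Trac*, 65 *Cd3e*, 37 the helper coreceptor gene *Cd4*, 34 *Nkg7*, 55 *Icos* and 47 *Ctla4*, and 10 held *Klrd1*.

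What else these cells held was described by splitting cluster 16 on 1 gene at a time, summing UMIs over the cells with that gene and over the other cells. The same size of difference, a log2 ratio of 2 or more, was used, and genes were taken from lists for receptor signalling, type 17, cytotoxic, regulatory, type 2 and homing functions.

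The 20 cells with *Trdc* had a median of 5674 UMIs against 4359 for the rest, and 31 of 5819 genes (0.533%) were higher in them. *Il17a* was the only other of the 10 genes among these, in 9 of 20 cells (45%, 23.1 to 68.5%) against 9 of 195, with 856 CPM against 33.8 CPM and a log2 ratio of 4.66. Of 13 type 17 genes with enough UMIs, 4 were higher. *Cd163l1*, a scavenger receptor of gamma delta T cells, was in 17 of the 20 cells and 1 of the other 195. *Blk*, a Src family kinase, was in 11 and 1. The gamma chain gene *Tcrg-C1* was in 17 and 8, at a log2 ratio of 5.27 (4.22 to 6.49). The interleukin 1 receptor gene *Il1r1* was at a ratio of 3.45 (2.11 to 4.85) and *Il17f* at 2.05 (1.10 to 2.95). The 17 UMIs of *Il17f* came from 2 of the 20 cells, with 31 in 13 of the others, and its call was lost with TMM and median-of-ratios factors (1.94 with each) and in stricter cells (1.41), which left 3 of the 13 genes. The growth factor gene *Areg*, which was higher still in W epithelial cells than in cluster 16 as a whole (643 CPM against 274 CPM), was at 2.74 (2.40 to 3.09), and the checkpoint receptor gene *Pdcd1* at 2.30 (1.26 to 3.30). *Trac* was in 4 of these cells and *Cd4* in none.

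Of the 18 cells with *Il17a*, 9 were also *Trdc* cells, so the 2 splits share cells and calls in both are not separate results. In the 18 cells, 26 genes (0.447%) were higher. *Trdc* was the only other of the 10, at 2.67, together with *Areg* (2.95), *Cd163l1* (2.74), *Il1r1* (2.70), *Tcrg-C1* (2.64) and *Il17f* (2.36). Of 13 type 17 genes 3 were higher, and 2 in stricter cells, where *Il17f* was at 1.76. *Cd163l1* was in 8 of the 18 cells, while only 1 of the 195 cells without *Trdc* held it. The list genes were not compared between *Il17a* cells with and without *Trdc*. The 9 that also held *Trdc* had 104 *Il17a* UMIs, a median of 8 and up to 34 per cell. The 9 without *Trdc* had 31, a median of 2 and up to 8. Of the latter, 7 held *Trac* and 3 *Cd4*, against 2 and 0 of the former.

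The 49 cells with *Cd8a* had 43 genes (0.739%) higher. *Gzma* was at 4206 CPM against 82.4 CPM (log2 ratio 5.67) and was found in 29 of 49 cells against 10 of 166. *Nkg7* was at 1635 CPM against 219 CPM (2.90). Of 13 cytotoxic genes, 10 were higher, among them *Cd8b1*, the other CD8 chain, at 4.35 (3.75 to 5.0), the granzyme genes *Gzmk* (3.76) and *Gzmb* (2.63), the chemokine gene *Ccl5* at 3.31 (3.2 to 3.41), the transcription factor gene *Tbx21* (3.1), *Fasl* (2.85) and the interferon gamma gene *Ifng* (2.14). With means over cells *Ifng* (1.66) and *Xcl1* (1.92) lost their calls, which left 8 of the 13. The gamma chain gene *Tcrg-C2* was also higher (log2 ratio 3.0), in 21 of the 49 cells. *Cd4* was in none of the 49 cells and *Icos* in 16 (32.7%, 19.95 to 47.5%), against 94 of the other 166.

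The 39 cells with *Gzma* had 27 genes (0.464%) higher. They overlapped the *Cd8a* cells in 29, and these 29 held 898 of the 966 *Gzma* UMIs, a median of 28 per cell. The 10 with *Gzma* alone held 68, a median of 4. In those 10, the beta chain gene *Trbc2* was found in 7, *Cd3d* or *Cd3e* in 5, *Cd3g* in 5 and *Trac* in 3. *Klrd1* was found in 7 of them, *Fcer1g* in 6 and *Tyrobp* in 5. Of the 10 genes, *Cd8a* (3.14) and *Nkg7* (2.25) were higher with *Gzma*, and of the 13 cytotoxic genes 7, led by *Gzmb* at 2.89 (2.63 to 3.14) and *Ccl5* at 2.79 (2.69 to 2.88). With means over cells 4 of the 7 remained, *Gzmk* and *Klrd1* falling just under 2 and *Tbx21* to 1.54.

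The 27 cells with *Foxp3* had 33 genes (0.567%) higher. None of the other 9 genes was among them, with *Ctla4* at 729 CPM against 293 CPM (1.32) in 24 of 27 cells against 88 of 188. Split the other way, *Foxp3* was higher in the 112 cells with *Ctla4* (67.7 CPM against 8.12 CPM, log2 ratio 3.06), in 24 of them against 3 of the rest, where 0.344% of genes were higher. Of 11 regulatory and costimulation genes, 7 were higher. The Ikaros family gene *Ikzf2* was in all 27 cells and in 50 of the other 188 (2.70, 2.34 to 3.06), and its relative *Ikzf4* was at 2.94. The costimulatory receptor genes *Tnfrsf4* (OX40) and *Tnfrsf18* (GITR) were both at 2.67, *Tnfrsf9* (4-1BB) at 2.32, the inhibitory receptor gene *Klrg1* at 2.90 and the interleukin 2 receptor gene *Il2ra* at 2.11. *Il2ra* lost its call with TMM factors (1.92), median-of-ratios factors (1.90) and means over cells (1.99), which left 6 of the 11. *Ikzf2* was also in 92.9% of W epithelial cells, at 282 CPM against 255 CPM in cluster 16. *Cd4* was in 12 of the 27 *Foxp3* cells. *Gzmb* was in 12 of them as well (log2 ratio 0.03) and *Cd8b1* in 4.

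**Figure D4:**
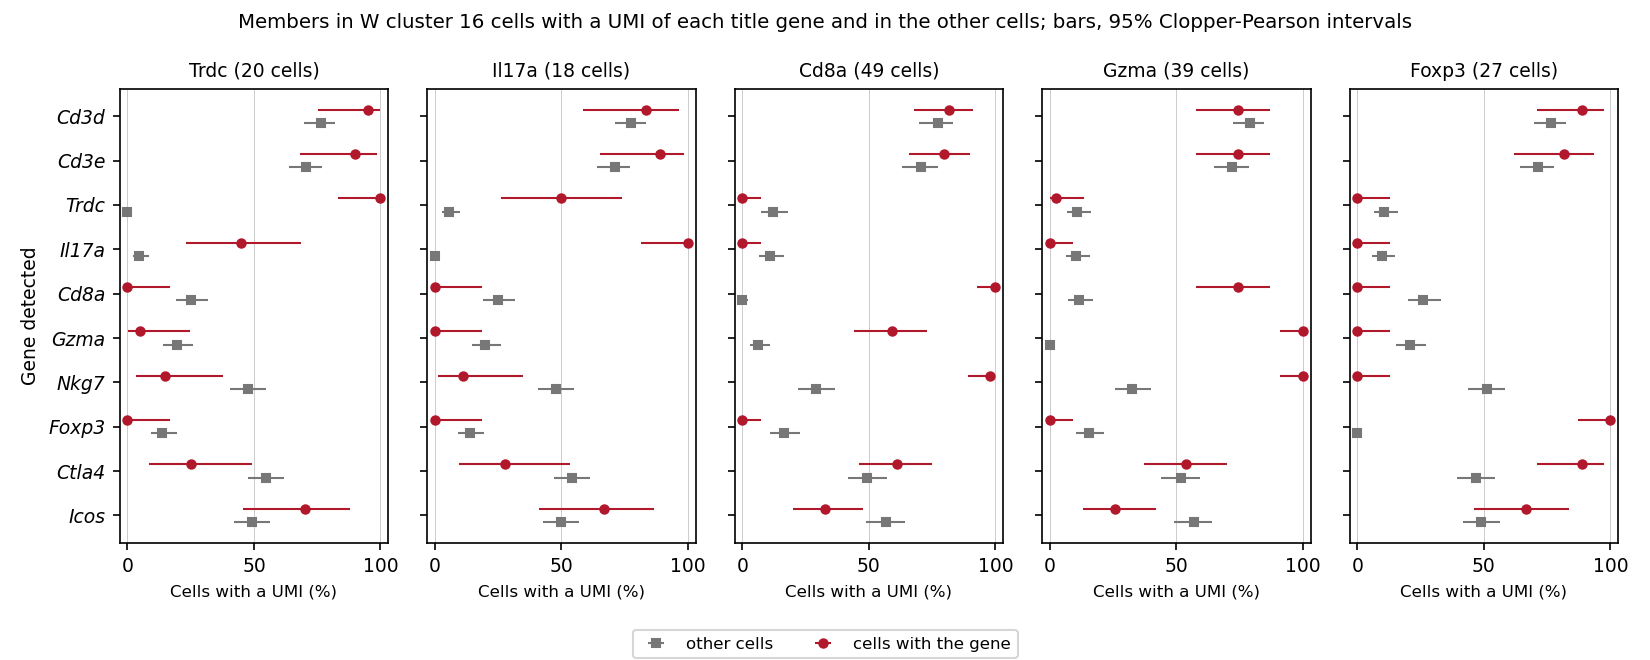
Red circles give the percent of the cells with the gene in the title that hold each of the 10 genes, and grey squares the percent of the other W cluster 16 cells, with 95% intervals. The title gene itself is at 100% and 0% because it made the split. *Nkg7* is at 98.0% in the *Cd8a* cells and 100% in the *Gzma* cells, and at 0% in the *Foxp3* cells.

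**Figure D5:**
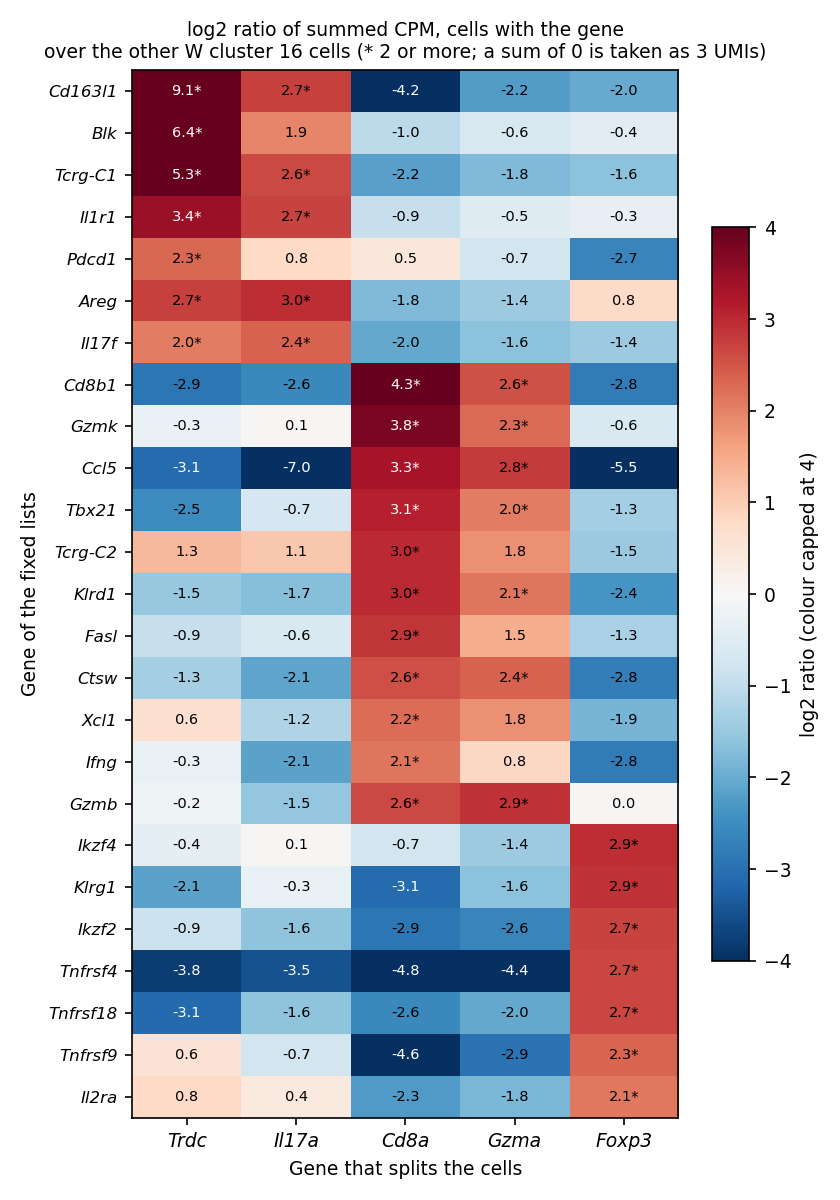
The number and colour in each square give the log2 ratio of the level in cells with the gene on the horizontal axis over the other W cluster 16 cells, for every gene of the lists with a ratio of 2 or more in at least 1 split. Genes are ordered by the split with their highest ratio, and the blocks for *Trdc* or *Il17a*, *Cd8a* or *Gzma*, and *Foxp3* follow from that order. *Cd163l1* at 9.07 has the highest ratio. *Gzmb*, called with *Cd8a* and *Gzma*, was also in 12 of 27 *Foxp3* cells (0.03) and 9 of 20 *Trdc* cells (-0.18).

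The genes most like each of the 10 in the cells where they were detected were found by the phi coefficient, the correlation of presence over the 215 cells, among genes in 10 or more cells. Values are descriptions, since all cells share a library and differ in depth. *Trdc* had the closest neighbours, *Cd163l1* (0.89), *Tcrg-C1* (0.73) and *Blk* (0.69). Those of *Cd8a* were *Cd8b1* (0.64), *Ccl5* (0.59) and *Nkg7* (0.58), those of *Nkg7* were *Ccl5* (0.67), the cathepsin gene *Ctsw* (0.61) and *Cd8a* (0.58), and those of *Gzma* were *Cd8a* (0.58), the chemokine gene *Ccl4* (0.55) and *Ccl5* (0.53). *Foxp3* was followed by *Ikzf2* (0.51), *Tnfrsf4* (0.49) and *Ttn* (0.43), and *Il17a* by *Trdc* (0.42), *Myo1e* (0.41) and *Tcrg-C1* (0.41). *Cd3d* was closest to *Cd3g* (0.47), *Cd52* (0.39) and *Lat* (0.37), and *Icos* to *Maf* (0.39), *Ccdc88c* (0.31) and *Clint1* (0.30). By the coefficient of the closest gene, the lowest were *Cd3e*, with *Trbc2* (0.35), *Cd3g* (0.35) and *Cd3d* (0.33), and *Ctla4*, with *Tnfrsf4* (0.30), *Tnfrsf9* (0.30) and *Gimap9* (0.29).

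Over the whole of cluster 16 against clusters 13 to 15, where 4.5% of genes were called higher and 6.49% lower by the same size, 17 of 17 receptor and signalling genes with enough UMIs were higher, among them *Cd3g* at 1161 CPM against 2.07 CPM. So were 7 of 14 type 17 genes, 12 of 15 cytotoxic genes, 11 of 12 regulatory and costimulation genes, 2 of 4 type 2 genes (*Gata3* and *Il1rl1*, with *Arg1* lower) and 5 of 10 homing genes (*S1pr1*, *Cxcr3*, *Itgae*, *Cd69* and *Itgb7*). With TMM and median-of-ratios factors *Ikzf2* was no longer called (1.89), which left 10 of the 12 regulatory genes. None of 6 division genes was. The residence marker genes *Cd69* and *Itgae* were found in 126 and 53 of the 215 cells. Of the genes known for recirculation and recruitment, the egress receptor gene *S1pr1* was in 49, *Klf2*, whose product drives *S1pr1*, in 89 (302 CPM against 365 CPM in clusters 13 to 15), the chemokine receptor gene *Ccr2* in 67 and the lymph node homing gene *Ccr7* in 14.

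The upstream windows of the 3 genes found together, *Cd8a*, *Gzma* and *Nkg7*, and of *Il17a*, which was never found with *Cd8a* or *Gzma*, are shown from RefSeq (GRCm38.p6), 5′ to 3′ in the direction of the gene and ending before its first annotated base. Capitals mark 2 motifs searched on both strands, the RUNX core TGTGGT and the ROR half-site AGGTCA, which do not overlap each other here.
Cd8a, chr6:71373177-71373426, + strand: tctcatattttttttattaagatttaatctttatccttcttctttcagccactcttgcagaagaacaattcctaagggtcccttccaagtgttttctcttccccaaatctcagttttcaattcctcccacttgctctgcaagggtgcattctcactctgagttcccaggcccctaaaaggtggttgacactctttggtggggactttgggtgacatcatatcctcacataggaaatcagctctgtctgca
Gzma, chr13:113100982-113101231, - strand: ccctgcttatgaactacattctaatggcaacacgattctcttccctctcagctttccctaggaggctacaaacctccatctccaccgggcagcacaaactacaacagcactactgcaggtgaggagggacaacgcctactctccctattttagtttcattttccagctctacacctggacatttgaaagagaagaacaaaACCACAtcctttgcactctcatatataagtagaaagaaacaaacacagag
Nkg7, chr7:43436888-43437072, + strand: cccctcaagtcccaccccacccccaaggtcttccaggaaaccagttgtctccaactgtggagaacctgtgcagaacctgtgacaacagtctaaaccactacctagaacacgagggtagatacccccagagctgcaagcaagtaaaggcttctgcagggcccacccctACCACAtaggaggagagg
Il17a, chr1:20730655-20730904, + strand: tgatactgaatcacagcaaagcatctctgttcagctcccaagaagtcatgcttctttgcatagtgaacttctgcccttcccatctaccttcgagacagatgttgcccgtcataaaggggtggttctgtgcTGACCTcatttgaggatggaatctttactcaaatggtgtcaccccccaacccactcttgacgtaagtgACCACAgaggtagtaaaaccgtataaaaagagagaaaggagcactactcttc
The RUNX core lay in the windows of *Gzma*, *Nkg7* and *Il17a* and not in that of *Cd8a*. It lay in 4614 of 32851 windows of 250 bases before a gene's start (14.05%), and the ROR half-site, which was in that of *Il17a*, in 4607 (14.02%). Windows were given for 8 of the 10 genes, not for *Trdc* and *Icos*. Of those 8 genes, 3 held the RUNX core, and 2, *Il17a* and *Foxp3*, the ROR half-site. The 8 genes had 9 windows, since *Foxp3* had 2, and only 1 of its 2 held the ROR half-site. The shares over all windows count windows and not genes. The T-box half-site GGTGTGA, in 3.33% of all windows, was in that of *Nkg7* alone, within the last 65 bases, which are not shown because they are annotated as part of the gene. A match describes these letters and is not a measured binding site.

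Cluster 16 of UW held 7 cells, with a median of 2979 UMIs, too few for shares. 4 of them held *Trdc*, at 15, 23, 11 and 11 UMIs, and each of the 4 also held *Cd3d*, *Cd3e* and *Icos*, the delta variable gene *Trdv4*, and no *Trac*. The fifth held 1 UMI each of *Cd3d* and *Icos*. The sixth held 8 UMIs of *Cd3d*, 3 of *Cd3e* and 4 of *Trac*. The seventh held 28 UMIs of *Gzma* and 46 of *Ccl5*, with 7 of *Fcer1g*, 3 of *Tyrobp*, 1 of *Trac* and 2 of the beta chain gene *Trbc1*, and neither *Cd3d* nor *Cd3e*. *Il17a*, *Cd8a*, *Nkg7*, *Foxp3* and *Ctla4* were at 0 in all 7. These cells are listed only. With 1 library per condition, wounding and library cannot be told apart.

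Outside the immune clusters, UMIs of the 10 genes appeared in both libraries. In W epithelial cells the shares ran from 0.0705% (*Trdc* and *Cd8a*) to 0.705% (*Gzma*) at a median of 25553 UMIs per cell, and in UW epithelial cells, at 23669, from 0 of 13501 (*Il17a*, *Cd8a*, *Nkg7* and *Ctla4*, which allows up to 0.0222%) to 0.281% (*Gzma*, in 38 cells). *Foxp3* was in 7 of 956 cells of epithelial cluster 9 in W and in 6 of 521 in UW. After thinning to 2000 UMIs, no gene was in more than 8 of 8485 W epithelial cells. Each of the shares of W cluster 16 was above all of these.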

How the data were processed

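From 10x Genomics 3′ libraries, the authors obtained UMI counts for every gene in every cell by Cell Ranger 3.1.0, and the counts were deposited as they were, with no scaling. The labels name the v3 kit and mm9, and the paper the V2 kit and mm10. The deposited table of cells, made with Seurat, gives cluster numbers and doublet calls and no cell type names. The authors describe calling doublets with DoubletFinder and removing them.

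The 10 genes, gene lists and markers were chosen with earlier results of these data known, and the motifs and the 3-way grouping of cells after values had been seen. Named genes are the 10, the 3 closest by phi for each, and list genes called in a split. Other genes come from the fixed lists and markers or, like *Tyrobp*, *Fcer1g* and *Trdv4*, from neither, and were picked for naming after their values were seen. Counts were summed per group in Python 3.11.15 (scipy 1.17.1), with exact Poisson intervals for CPM and exact Clopper-Pearson intervals for shares, at 95%. A sum of 0 was taken as 3 counts in ratios. With 1 library per condition, no test was made. Positions are from GENCODE vM21 (GRCm38), in which *Cd3e*, *Trdc*, *Ctla4* and *Icos* also overlap other genes or pseudogenes, and promoters from RefSeq. Alternatives were thinning to 2000 UMIs, detection at 2 UMIs, stricter cells (1000 genes, 5% mitochondrial UMIs), TMM factors (edgeR 4.0.16), median-of-ratios size factors (DESeq2 1.42.0), no filter on low counts and means over cells.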

Additional observations from a re-analysis of the deposited data

Results flagged for a closer look

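Genes of the list were also found in the epithelial and stromal clusters of W, which the comparisons above do not use. For all 10 the share of the 10858 W cells was above that of the 16435 such cells of UW, the control library. The shares were 0.645% in W and 0.237% in UW for *Gzma*, 0.387% and 0 for *Ctla4*, 0.341% and 0.0122% for *Cd3d*, 0.304% and 0 for *Nkg7*, 0.23% and 0.0183% for *Cd3e*, 0.212% and 0.0608% for *Icos*, 0.12% and 0.073% for *Foxp3*, 0.101% and 0 for *Il17a*, 0.0829% and 0 for *Cd8a*, and 0.0737% and 0.0243% for *Trdc*. The 95% counting intervals of the 2 libraries overlapped for *Foxp3* (0.0638 to 0.205% and 0.0377 to 0.128%) and *Trdc* (0.0318 to 0.145% and 0.00663 to 0.0623%). A count of 0 in the UW cells allows a share of up to 0.0183%. Each condition is 1 library, so these differences were not tested, and wounding and library cannot be told apart. Median depth was 22460 UMIs per cell in W and 22023 in UW.

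At least 2 of the 10 genes were in 24 of these W cells (0.221%, 0.142 to 0.329%) and in 2 of these UW cells (0.0122%). The 24 cells had a median of 29943 UMIs against 22460 for all, and 15 of them held 3 or more of the genes. Those 15 included, chosen after their values were seen, a stromal cell with 99 UMIs of *Kera*, 1097 of *Dcn* and 9 of *Cd3g* beside *Cd3d*, *Cd3e*, *Trdc*, *Il17a*, *Ctla4* and *Icos*, and an epithelial cell with 105 UMIs of *Krt12* beside 21 of *Gzma*, 7 of *Nkg7* and 4 of *Cd8a*. Whether such droplets held 2 cells was not tested.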

How the results depend on the processing

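All 10 genes stayed above the size for a call against W clusters 13 to 15 with TMM and median-of-ratios factors, without the filter on low counts, with means over cells, in stricter cells, without the cell with mast cell genes and against each of the 3 clusters alone. So did, in all but the last, the 6 calls of one of the 10 genes in the 5 fixed splits, and the 3 in splits on *Nkg7*, *Icos* and *Ctla4* made in addition (*Cd8a* and *Gzma* with *Nkg7*, *Foxp3* with *Ctla4*), where 0.739%, 0.292% and 0.344% of genes were higher. Neither was recomputed with thinned cells or detection at 2 UMIs. Leaving out cells named doublets changed no share or pair count, since none was in cluster 16. With detection at 2 UMIs, the share of cells with any of the 10 genes was 90.7% against 96.7%, and 7 pairs were in excess and 6 in shortfall against 4 and 10, out of 36 pairs with 3 or more cells expected (19.4% and 16.7%, where all such pairs of genes gave 16.5% and 1.2%). All 4 excess pairs and 3 of the 10 shortfall pairs were called in both, and the other 7 had under 3 cells expected, except *Trdc* with *Ctla4*. New in excess were *Trdc* with *Cd3d*, *Cd3e* and *Icos*. New in shortfall were *Icos* with *Cd8a* and *Gzma*, and *Il17a* with *Ctla4*. Without the filter on low counts, 736 genes were higher with *Trdc*, 1264 with *Il17a*, 140 with *Cd8a*, 137 with *Gzma* and 441 with *Foxp3*, against 31, 26, 43, 27 and 33. Median-of-ratios factors gave 20 genes with *Foxp3*. TMM and median-of-ratios factors moved the ratio of cluster 16 to clusters 13 to 15 by -0.29 for every gene, and those of the 5 fixed splits by -0.21 to -0.01. TMM factors ended the call of *Tbx21* with *Gzma* (1.96). Thinning to 2000 UMIs took the share of W epithelial and stromal cells with any of the 10 genes from 1.9% to 0.231%. Leaving out the cell with mast cell genes, an alternative added after seeing the data like the extra splits, the alternatives for list genes and the thinning of the epithelial and stromal cells, gave 97.2% of cells with any of the 10 genes, 4 pairs in excess and 11 in shortfall (*Gzma* with *Icos* added), and 30, 26, 43, 30 and 31 genes higher in the 5 splits in the order above. Each gene's depth limits its shares, *Foxp3* most, at 4.19% of cells with 2 UMIs against 12.6% with 1. No paired analysis was possible because each condition is 1 library.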

Other observations

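The receptor genes of interleukin 17 and the ligand genes of CTLA4 and ICOS were measured in the other cells of the cornea. The interleukin 17 receptor subunit gene *Il17rc* was at 52.8 CPM (exact Poisson interval 51.9 to 53.7) in W epithelial cells, where 64.9% of cells held it, and at 28.9 CPM (28.4 to 29.5) in UW epithelial cells. In stromal cells it was at 26.8 CPM in W and 16.7 CPM in UW. The partner subunit gene *Il17ra* was at 86.1 CPM (73.2 to 100.6) in W cluster 13, at 6.23 CPM in W epithelial cells and at 4.22 CPM in UW epithelial cells. It was at 20.6 CPM and 17.7 CPM in W clusters 14 and 15, and in stromal cells at 12.7 CPM (11.6 to 13.8) in W and 4.07 CPM (3.42 to 4.81) in UW. In W cluster 16 it was at 51.0 CPM, in 20.5% of cells. By share of cells, *Il17ra* was in 18.2% of W cluster 13 and 15.4% of W epithelial cells. Their median depths were 2510 and 25553 UMIs, and CPM is relative to the total. Each condition is 1 library, and these intervals cover counting error only.

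The ligand genes of CD28 and CTLA4 were at higher levels in W clusters 13 to 15 than in W epithelial cells. *Cd86* was at 145 CPM and 186 CPM in W clusters 14 and 15, and at 8.72 CPM in cluster 13, where *Cd80* was at 41.4 CPM, against 19.5 CPM and 19.9 CPM in clusters 14 and 15. In W epithelial cells *Cd86* was at 0.234 CPM and *Cd80* at 0.695 CPM, with a UMI of *Cd80* in 157 of 8507 of them against 66, 49 and 44 cells of clusters 13, 14 and 15. *Icosl*, the ligand gene of ICOS, was spread more evenly, at 9.2 CPM in W epithelial and 7.19 CPM in W stromal cells, at 11.8 CPM and 11.6 CPM in those of UW, and from 5.17 to 13.3 CPM in W clusters 13 to 15. The list they come from also holds cytokine genes and ligand genes of other lymphocyte receptors. Of its 12 genes with enough UMIs, 5 were lower in cluster 16 than in clusters 13 to 15 by a log2 ratio of 2 or more, *Il1b*, *Il15*, *Cd80*, *Cd86* and *Icosl*, and none was higher, where 6.49% of all genes were as much lower and 4.5% as much higher. *Icosl* was called from 2 UMIs in cluster 16, fewer than the 3 that a sum of 0 was given, by which *Il23a* and *Il12b*, at 0 in cluster 16 against 64 and 49 UMIs, were not called.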
